A study of Danio rerio with 24 samples.

Results

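Amino acid transporters are the membrane proteins that move amino acids, and relatives such as taurine and GABA, across the cell surface and the membrane of the lysosome. The genes described here were chosen by symbol: every gene whose name begins with slc1a, slc3a1, slc3a2, slc6a, slc7a, slc36a, slc38a or slc43a, without slc6a8, the creatine carrier. The rule found 81 of the 31953 gene IDs in the count table, and used no measured value. Of these, 80 are named as carriers or their subunits, and slc7a6os is named for lying on the strand opposite slc7a6 and is no carrier. The RNA came from skeletal muscle of zebrafish (Danio rerio), 4 months old in every group. Untrained_TG fish carried actc1b:PGC1alpha, a transgene of the coactivator PGC1alpha named for actc1b, a muscle actin gene, and were not trained. Trained_WT fish were wild type after chronic exercise training. Untrained_WT fish were wild type without training. The transgenic fish were sampled without training only, so the data hold no trained transgenic group. Each group had 7 libraries. The labels do not say whether a library was 1 fish or a pool, or how many transgenic lines were used, and p-values therefore speak to variation among the libraries at hand, which may be technical.

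Several of these carriers work as pairs. A glycoprotein heavy chain encoded by an slc3 gene brings a light chain encoded by an slc7 gene to the membrane, and the pair exchanges large neutral, basic or cystine-type amino acids. Other families work alone: slc7a1 to slc7a3 carry arginine and lysine, slc38 genes carry glutamine and alanine with sodium, slc43a1 and slc43a2 carry leucine and other branched-chain amino acids by facilitated diffusion, and slc1 and slc6 genes use ion gradients. Muscle holds much of the free amino acid pool of the body, and in mammals amino acid supply is read by the kinase mTOR at the lysosome and by the kinase GCN2, whose target ATF4 switches on many carrier genes. These roles come mainly from human, mouse and rat proteins, and are given below as background.

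Libraries held 42808402 to 78085562 counts over genes in untrained_TG, 72144205 to 78624009 in trained_WT and 70980459 to 79184764 in untrained_WT. Levels are given as CPM, read counts scaled to a common library size after TMM scaling of library sizes. Summed fast muscle markers had medians of 14488 CPM in untrained_TG, 158560 CPM in trained_WT and 156570 CPM in untrained_WT, and the composition differed: 6 of 7 fast muscle markers were called lower and 3 of 3 slow muscle markers higher in untrained_TG against untrained_WT. All 6 endothelial markers and 3 of 4 tested adipocyte markers were also higher in untrained_TG. In trained_WT against untrained_WT, 2 of 6 endothelial markers and 1 of 3 slow muscle markers were higher, and none of either with library totals or without untrained_WT replicates 3 and 7. With library totals, 1 of 6 endothelial and 1 of 4 adipocyte markers were higher in untrained_TG. Summed endothelial marker levels were 185 to 348 CPM in untrained_TG, 118 to 341 CPM in trained_WT and 77.3 to 183 CPM in untrained_WT. Germ-line markers summed to 1.18 to 7.12 CPM in untrained_TG, 0.793 to 18.5 CPM in trained_WT and 3.61 to 107 CPM in untrained_WT, where replicates 3 and 7 were highest. Of 7 germ-line markers, 6 were called lower in untrained_TG, and without those replicates 0 of 7 were (edgeR). What part these cell types have in the carriers' differences was not tested. In such whole-muscle libraries, fewer cells of a type and less RNA per cell cannot be told apart.

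The 81 genes took 0.103% ± 0.0346 of all counts over genes in untrained_TG, 0.166% ± 0.0264 in trained_WT and 0.160% ± 0.0227 in untrained_WT (SD, n = 7 each). The mitochondrially encoded genes took 46.8% ± 2.45, 11.2% ± 1.45 and 10.5% ± 2.38 of counts in those groups. With those 13 genes set aside, the carriers' shares were 0.193% ± 0.0623, 0.187% ± 0.0288 and 0.180% ± 0.0276 in untrained_TG, trained_WT and untrained_WT, and the groups differed by less than their spread. Counts were concentrated in a few genes. The leucine carrier gene slc43a2a alone took 27.8% ± 6.31 of the carriers' counts in untrained_TG, 31.9% ± 2.39 in trained_WT and 34.7% ± 7.90 in untrained_WT. The glutamine carrier gene slc38a2 took 19.2% ± 2.92, 12.6% ± 5.43 and 17.0% ± 3.06. These shares are of read counts, not corrected for transcript length, and so do not rank the genes by transcript number. Low-count members were not tested in the main edgeR fit. Of the 81, 57 passed the filter on low counts, and 21 were counted but fell under it with at most 7.05 counts per library on average. The genes slc1a8a, slc6a1a and slc6a1l had no counts, which allows a level of up to 0.00196 CPM over all libraries (counting error only). Among those tested, 54 reached the filter's level of 0.134 CPM in at least 4 libraries of every group. The exceptions were slc7a3b and slc6a15, which reached it in both wild-type groups, and slc6a11b, which reached it in trained_WT.

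Across the whole family, carriers differed in both directions in untrained_TG, at a share near that of all genes. Fewer were called in trained_WT, though at a share above that of all genes. A gene was called when its adjusted p (edgeR quasi-likelihood F test, Benjamini-Hochberg over all 18947 genes tested) was under 0.05. In untrained_TG against untrained_WT, 11 of the 57 tested carriers rose and 12 fell, which is 40.4%. Over all genes tested 43.4% were called, 18.3% higher and 25.1% lower, so the carriers' share was near the background. Their median log2 fold change was -0.38, against -0.13 over all genes, and in 9 of them the libraries of the groups did not overlap in CPM, against 15.8% of all genes. In trained_WT against untrained_WT, 5 rose and 2 fell, 12.3% of those tested, against 2.95% of all genes, with 2.25% higher and 0.702% lower. The median was -0.09 against -0.07 over all genes, and 3 carriers did not overlap between the groups, against 1.34% of all genes. Set directly against each other, untrained_TG was higher than trained_WT for 7 carriers and lower for 16, again 40.4%, against 41.6% of all genes, with 19.2% higher and 22.5% lower. The 16 include slc7a3b, which passed the filter through the wild-type groups only. The median there was -0.06 against -0.05, and 9 carriers did not overlap, against 19.7% of all genes. The medians depended on the method. Limma gave carriers -0.08 in untrained_TG against untrained_WT, where all genes had -0.09. In trained_WT against untrained_WT limma gave 0.20 against -0.02 over all genes, and in untrained_TG against trained_WT -0.27 against -0.08. The comparisons share libraries and are not independent of each other.

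The split between rising and falling genes depended on the scaling. With library totals in place of TMM, the median log2 fold change of all genes moved to -0.64 in untrained_TG against untrained_WT, to -0.36 in trained_WT against untrained_WT and to -0.25 in untrained_TG against trained_WT. The carriers called were then 7 higher and 26 lower, 3 higher and 4 lower, and 7 higher and 18 lower. Over all genes the counts in untrained_TG against untrained_WT were 1538 higher and 8139 lower, where TMM gave 3468 and 4764. In trained_WT against untrained_WT they were 201 higher and 927 lower, where TMM gave 426 and 133. In untrained_TG against trained_WT they were 2178 higher and 4943 lower, where TMM gave 3632 and 4255. Without untrained_WT replicates 3 and 7, the carriers called were 11 higher and 9 lower in untrained_TG against untrained_WT, and 4 higher and 2 lower in trained_WT against untrained_WT. Of the 19211 genes tested then, 3481 were higher and 4057 lower in untrained_TG, and 210 higher and 52 lower in trained_WT. In the authors' deposited tables, 12 of the 81 genes were higher and 15 lower in untrained_TG, and 7 higher and 4 lower in trained_WT, at an adjusted p under 0.05. There 9 and 24 of the 81 had no adjusted p. The share of all genes called in those tables was not computed, so these counts have no background beside them.

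**Figure D1:**
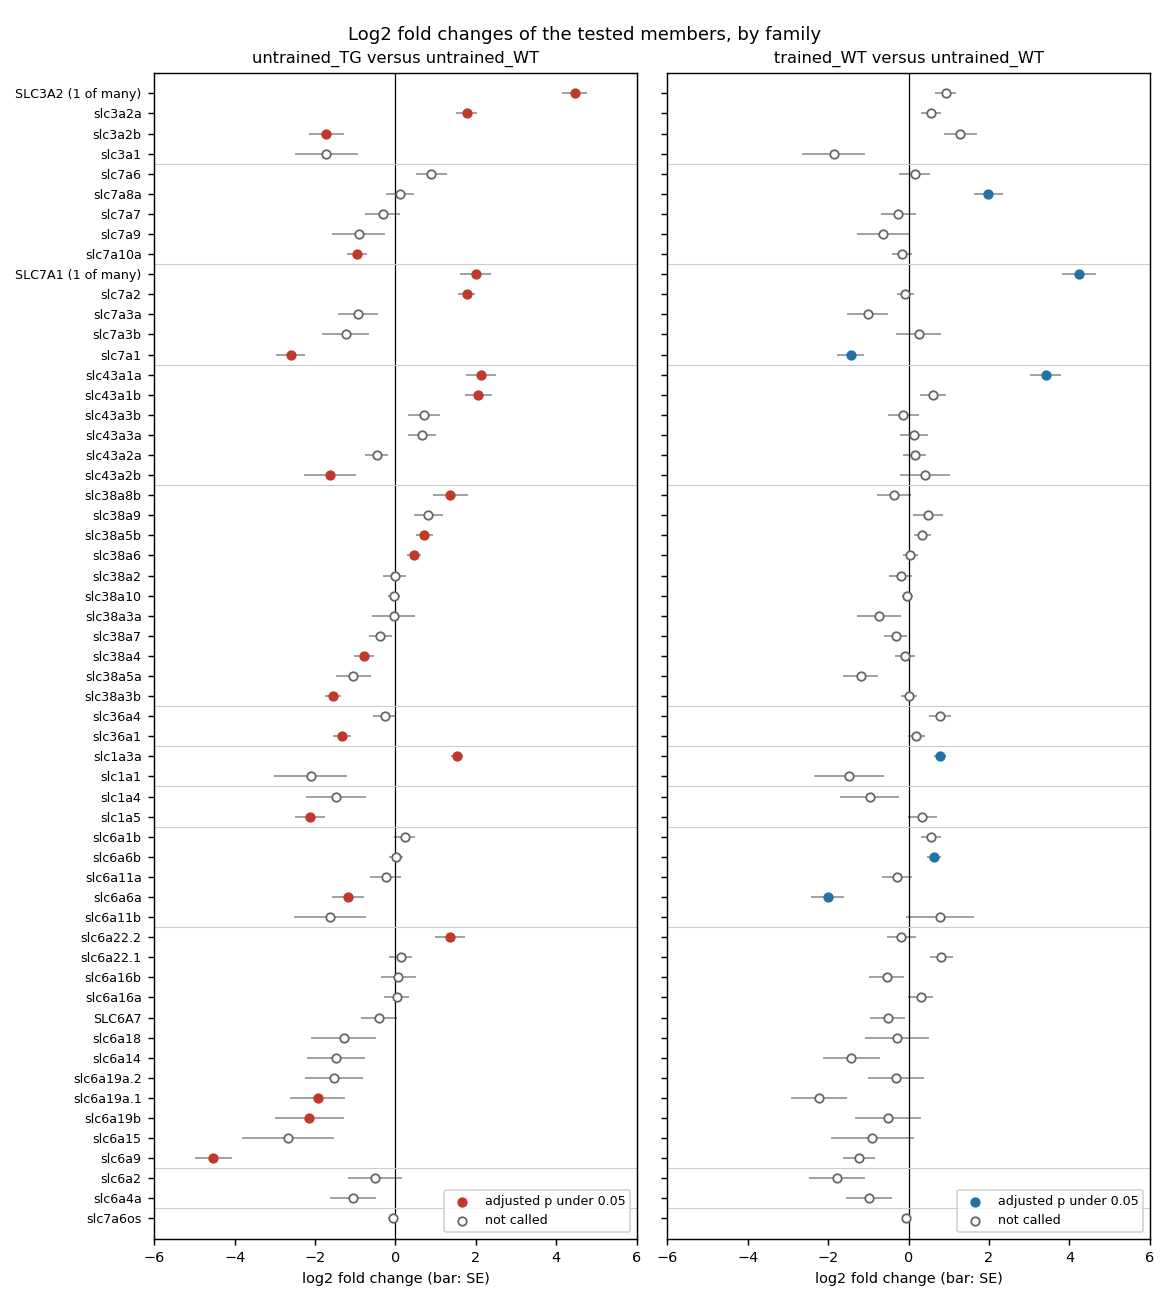
Log2 fold changes of the tested carriers by family (rows), in untrained_TG against untrained_WT and in trained_WT against untrained_WT (panels), with bars for the standard error. Filled points are called at an adjusted p under 0.05; 11 are higher and 12 lower in the transgenic panel, 5 higher and 2 lower in the trained panel.

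The heavy chains, the slc3 genes, showed opposite changes within one subfamily. Zebrafish has 3 genes annotated as slc3a2, whose human counterpart encodes CD98, the heavy chain for most light chains: slc3a2a, slc3a2b and a gene listed as SLC3A2 (1 of many) (ENSDARG00000055791, zgc:158423 in the names table). SLC3A2 (1 of many) lay between 38.0 and 106 CPM in untrained_TG (median 81.4), between 2.58 and 11.6 CPM in trained_WT (median 7.07) and between 2.59 and 4.18 CPM in untrained_WT (median 3.66). Every untrained_TG library was above every wild-type library. It rose by 4.46 ± 0.30 log2 units in untrained_TG against untrained_WT (SE, edgeR adjusted p = 1.81e-10), a 21.9-fold ratio of mean CPM, the highest log2 fold change of the tested carriers in that comparison. In trained_WT its log2 fold change of 0.92 ± 0.27 was not called (edgeR adjusted p = 0.0619), although 6 of 7 trained libraries exceeded the highest untrained_WT library. DESeq2 called it (adjusted p = 0.0204), as did edgeR without trained_WT replicate 3 (1.06, adjusted p = 0.0159) or without untrained_TG replicate 1 (0.93, adjusted p = 0.0467).

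The other heavy chain genes were slc3a2a and slc3a2b. For slc3a2a the levels were 25.2 to 69.95 CPM in untrained_TG (median 50.1), 15.0 to 29.5 CPM in trained_WT (median 18.2) and 8.48 to 27.2 CPM in untrained_WT (median 10.3). All but 1 of the transgenic libraries lay above the highest untrained_WT library, and the gene rose by 1.77 ± 0.26 log2 units (edgeR adjusted p = 1.04e-05). Its change in trained_WT, 0.56 ± 0.26, was not called (edgeR adjusted p = 0.23) but was called without untrained_WT replicate 5 (0.82, adjusted p = 0.0471) and by limma (adjusted p = 0.0219). The gene slc3a2b went the other way in transgenic muscle. It lay at 8.28 to 79.9 CPM in untrained_TG (median 21.8), 133 to 443 CPM in trained_WT (median 235) and 56.9 to 203 CPM in untrained_WT (median 89.1). No untrained_TG library reached the lowest trained_WT library, and 6 of 7 were below the lowest untrained_WT library. It fell by 1.72 ± 0.42 log2 units in untrained_TG against untrained_WT (edgeR adjusted p = 0.00233), and fell by 3.01 ± 0.44 against trained_WT (edgeR adjusted p = 1.05e-05). Its log2 fold change in trained_WT against untrained_WT was 1.29 ± 0.42, not called by edgeR (adjusted p = 0.0947) and called by DESeq2 (adjusted p = 0.0295). Of the 4 heavy chain genes edgeR called 0 in that comparison, though all 4 had an unadjusted p under 0.05, DESeq2 called 2 higher and limma 1 higher.

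The make-up of slc3a2 counts differed by group, a measure that does not depend on the scaling between libraries. Of the counts of the 3 genes together, slc3a2b took 20.5% ± 15.5 in untrained_TG, with a range of 4.80% to 50.9%, 89.5% ± 3.15 in trained_WT and 83.7% ± 6.95 in untrained_WT (SD, n = 7 each). SLC3A2 (1 of many) took 49.7% ± 13.2, 2.44% ± 0.796 and 3.33% ± 1.27, and slc3a2a took the remainder. The remaining slc3 gene, slc3a1, encodes the heavy chain of the kidney cystine carrier in mammals. It averaged 4.73 ± 4.31 CPM in untrained_TG, 4.29 ± 4.15 CPM in trained_WT and 15.6 ± 17.3 CPM in untrained_WT. With TMM it was called in neither comparison with untrained_WT (log2 fold changes of -1.72 ± 0.79, edgeR adjusted p = 0.0817, and -1.86 ± 0.79, edgeR adjusted p = 0.193).

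**Figure D2:**
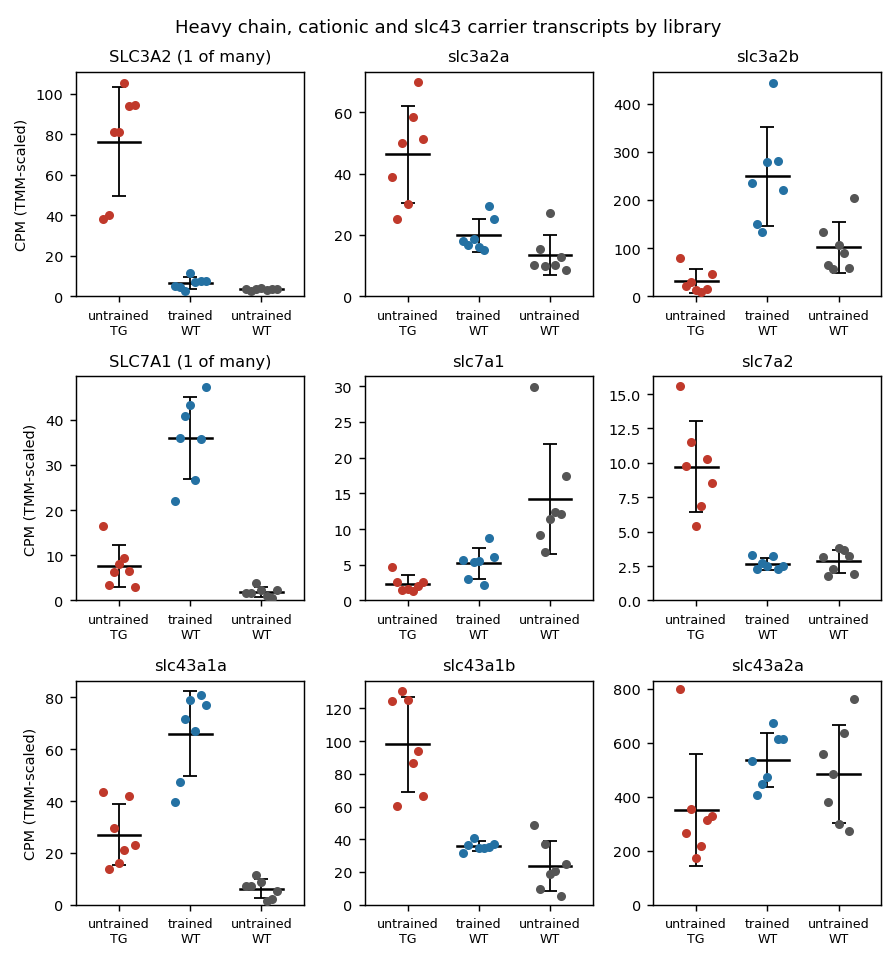
CPM of paralogous carriers in each library (points) with the group mean and SD (n = 7 per group, linear axes from 0), for untrained_TG, trained_WT and untrained_WT from left to right. SLC3A2 (1 of many) was at 38.0 CPM or above in all untrained_TG libraries and at or under 11.6 CPM in all wild-type libraries, while SLC7A1 (1 of many) and slc43a1a were highest in trained_WT.

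Among the light chains that pair with these heavy chains, 5 of 9 passed the filter. The gene of LAT1, slc7a5, a leucine carrier of mammalian cells, was not among them: it was listed at 0 to 0.136 CPM in untrained_TG, 0.0274 to 0.213 CPM in trained_WT and 0.0130 to 0.204 CPM in untrained_WT. The paralog slc7a8b was as sparse, at most 0.164, 0.0547 and 0.393 CPM in those groups. The gene slc7a8a, named after LAT2, a carrier of neutral amino acids, was the light chain that rose with training. Its levels were 6.82 to 15.9 CPM in untrained_TG (median 8.44), 12.8 to 52.8 CPM in trained_WT (median 38.1) and 3.84 to 15.1 CPM in untrained_WT (median 9.13). Of the trained libraries, 5 of 7 were above the highest untrained_WT library. The log2 fold change was 1.98 ± 0.36 in trained_WT against untrained_WT (edgeR adjusted p = 0.00286) and 0.11 ± 0.35 in untrained_TG against untrained_WT (edgeR adjusted p = 0.825), and the log2 fold change of untrained_TG against trained_WT was -1.87 ± 0.36 (edgeR adjusted p = 0.000201). The gene slc7a10a, whose mammalian counterpart carries small neutral amino acids such as serine and glycine, was called lower in untrained_TG. It ranged over 15.8 to 27.8 CPM in untrained_TG (median 20.5), 17.7 to 51.9 CPM in trained_WT (median 39.0) and 21.5 to 63.4 CPM in untrained_WT (median 32.9), so the groups overlapped. It fell by 0.95 ± 0.25 log2 units (edgeR adjusted p = 0.00411). The light chains slc7a6, slc7a7 and slc7a9 averaged 0.757 to 6.15 CPM over the groups and were not called by edgeR in the comparisons with untrained_WT. In the authors' deposited DESeq2 values slc7a6 was higher in untrained_TG (0.885, adjusted p = 0.0382).

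The cationic carriers, which bring in arginine and lysine, held the highest training response. A gene listed as SLC7A1 (1 of many) (ENSDARG00000100227) lay at 2.93 to 16.6 CPM in untrained_TG (median 6.43), 21.97 to 47.2 CPM in trained_WT (median 35.9) and 0.471 to 3.92 CPM in untrained_WT (median 1.71). All trained libraries were above all libraries of both untrained groups. Against untrained_WT it rose by 4.24 ± 0.42 log2 units in trained_WT (edgeR adjusted p = 4.59e-06), an 18.9-fold ratio of mean CPM and the highest log2 fold change of the tested carriers in that comparison. In untrained_TG it rose by 2.00 ± 0.39 (edgeR adjusted p = 0.000246), and the log2 fold change of untrained_TG against trained_WT was -2.24 ± 0.39 (edgeR adjusted p = 6.6e-05).

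Its paralog slc7a1 (ENSDARG00000016439, slc7a1a in the names table) changed in the opposite direction. It was at 1.29 to 4.74 CPM in untrained_TG (median 2.07), 2.10 to 8.78 CPM in trained_WT (median 5.55) and 6.80 to 29.9 CPM in untrained_WT (median 12.1). No untrained_TG library reached the lowest untrained_WT library, and 6 of 7 trained libraries were below it too. It fell by 2.61 ± 0.36 log2 units in untrained_TG (edgeR adjusted p = 3.8e-06) and fell by 1.44 ± 0.34 in trained_WT (edgeR adjusted p = 0.0221). The trained call was lost without trained_WT replicate 5 (-1.30, adjusted p = 0.0535) or untrained_WT replicate 2 (-1.14, adjusted p = 0.0534). Of the counts of both paralogs together, SLC7A1 (1 of many) took 73.8% ± 13.2 in untrained_TG, 87.2% ± 5.34 in trained_WT and 13.8% ± 11.2 in untrained_WT (SD, n = 7 each).

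The other cationic carrier with a call against untrained_WT was slc7a2, the gene of CAT2 in mammals. It lay at 5.43 to 15.6 CPM in untrained_TG (median 9.81), 2.26 to 3.30 CPM in trained_WT (median 2.49) and 1.79 to 3.79 CPM in untrained_WT (median 3.19). Every transgenic library was above every wild-type one. It rose by 1.77 ± 0.22 log2 units in untrained_TG (edgeR adjusted p = 9.04e-07), and its log2 fold change in trained_WT was -0.08 ± 0.21 (edgeR adjusted p = 0.873). Of the remaining genes, slc7a3a averaged 3.38 ± 2.86 CPM in untrained_TG, 3.17 ± 0.981 CPM in trained_WT and 6.42 ± 5.62 CPM in untrained_WT. It was called in none of the comparisons by edgeR with TMM. The sparse slc7a3b averaged 0.125 ± 0.102, 0.348 ± 0.159 and 0.293 ± 0.149 CPM, and was called lower in untrained_TG against trained_WT (-1.49 ± 0.59, edgeR adjusted p = 0.0463). It passed the filter through the wild-type groups only, where it was higher, so the filter itself favoured that call.

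Of the 6 slc43 genes, 2 rose and 1 fell in untrained_TG, and 1 rose in trained_WT. That is 50% in untrained_TG, near the 43.4% of all genes, and 16.7% in trained_WT, against 2.95% of all genes. The slc43a1 and slc43a2 genes are named after carriers of leucine and other branched-chain amino acids. The gene slc43a1a lay at 13.9 to 43.4 CPM in untrained_TG (median 23.1), 39.6 to 81.0 CPM in trained_WT (median 71.9) and 1.49 to 11.4 CPM in untrained_WT (median 7.23). Neither tested group overlapped with untrained_WT. It rose by 2.12 ± 0.37 log2 units in untrained_TG (edgeR adjusted p = 7.65e-05) and rose by 3.41 ± 0.39 in trained_WT (edgeR adjusted p = 2.27e-05), a 10.6-fold ratio of mean CPM, and the log2 fold change of untrained_TG against trained_WT was -1.29 ± 0.36 (edgeR adjusted p = 0.00596). Its paralog slc43a1b was instead highest in transgenic muscle, at 60.4 to 131 CPM in untrained_TG (median 93.7), 31.9 to 41.0 CPM in trained_WT (median 35.5) and 5.17 to 48.8 CPM in untrained_WT (median 20.7). It rose by 2.06 ± 0.33 log2 units in untrained_TG with no overlap (edgeR adjusted p = 3.34e-05), and its log2 fold change of 0.61 ± 0.32 in trained_WT was not called (edgeR adjusted p = 0.306). Of the counts of the pair, slc43a1a took 21.6% ± 6.43 in untrained_TG, 64.0% ± 5.94 in trained_WT and 23.3% ± 12.2 in untrained_WT (SD, n = 7 each).

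The most counted member, slc43a2a, was not called against untrained_WT. It lay at 172 to 798 CPM in untrained_TG (median 314), 408 to 674 CPM in trained_WT (median 531) and 271 to 763 CPM in untrained_WT (median 485), with log2 fold changes of -0.47 ± 0.28 (edgeR adjusted p = 0.183) and 0.15 ± 0.28 (edgeR adjusted p = 0.824). The highest transgenic value, in replicate 1, stood apart. Without that library the log2 fold change in untrained_TG was -0.79 and was called (adjusted p = 0.00858). With all libraries kept, limma called the gene lower as well (adjusted p = 0.0109). The gene slc43a2b, at 1.83 ± 0.727 CPM in untrained_TG, 7.52 ± 6.17 CPM in trained_WT and 5.66 ± 6.28 CPM in untrained_WT, was called lower in untrained_TG (-1.63 ± 0.65, edgeR adjusted p = 0.0482). That call was lost in 14 of 21 fits with a library left out. Without untrained_WT replicate 5, where it was 18.5 CPM, the log2 fold change was -0.995 (adjusted p = 0.195). The slc43a3 genes, whose mammalian counterpart carries purine bases, averaged 0.769 to 2.17 CPM over the groups and were not called by edgeR. Limma called 3 slc43 genes higher in untrained_TG against untrained_WT, an slc43a3 gene among them.

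Within slc1, whose members carry glutamate or exchange neutral amino acids, the genes changed in different directions. Of the 10 glutamate carrier genes 2 passed the filter, slc1a3a and slc1a1. The log2 fold change of slc1a1 in untrained_TG against untrained_WT was -2.11 and was not called by edgeR with TMM. With library totals slc1a1 was called lower, as in the authors' deposited DESeq2 values (-1.66, adjusted p = 0.0282). The gene slc1a3a, named after the glutamate carrier EAAT1, lay at 14.4 to 23.1 CPM in untrained_TG (median 16.7), 8.12 to 14.9 CPM in trained_WT (median 10.04) and 4.71 to 7.18 CPM in untrained_WT (median 6.10). Both tested groups lay wholly above untrained_WT. It rose by 1.53 ± 0.15 log2 units in untrained_TG (edgeR adjusted p = 4.02e-08) and rose by 0.79 ± 0.15 in trained_WT (edgeR adjusted p = 0.00409), a call that library totals ended (0.53, adjusted p = 0.0893). Markers of nerve and glia summed to 192 to 265 CPM in untrained_TG, 164 to 344 CPM in trained_WT and 167 to 256 CPM in untrained_WT, and 1 of 7 tested was called, higher, in untrained_TG.

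The glutamine exchanger gene slc1a5, ASCT2 in mammals, was lower in transgenic muscle. It lay at 5.13 to 36.0 CPM in untrained_TG (median 9.64), 41.2 to 98.5 CPM in trained_WT (median 68.5) and 30.8 to 93.6 CPM in untrained_WT (median 44.5). In all but 1 transgenic library, replicate 1 at 36.0 CPM, it was below the lowest untrained_WT library. It fell by 2.12 ± 0.38 log2 units in untrained_TG against untrained_WT (edgeR adjusted p = 9.7e-05) and fell by 2.47 ± 0.38 against trained_WT (edgeR adjusted p = 1.92e-05). Its log2 fold change in trained_WT was 0.34 ± 0.36 (edgeR adjusted p = 0.648). The related slc1a4, ASCT1, a serine and alanine exchanger, averaged 2.01 ± 2.80 CPM in untrained_TG, 2.83 ± 1.93 CPM in trained_WT and 5.54 ± 2.84 CPM in untrained_WT. Its log2 fold change in untrained_TG of -1.47 ± 0.75 was not called (edgeR adjusted p = 0.117), but it was called without untrained_TG replicate 7 (-2.37, adjusted p = 0.013) and by limma (-2.76, adjusted p = 0.00921).

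The slc6 family spans carriers of taurine, GABA, glycine and neutral amino acids. The lowest log2 fold change of the tested carriers in transgenic muscle was that of slc6a9, the glycine carrier GlyT1. It lay at 0.266 to 0.880 CPM in untrained_TG (median 0.447), 3.28 to 8.08 CPM in trained_WT (median 3.96) and 2.57 to 26.0 CPM in untrained_WT (median 10.3). All transgenic libraries were below all wild-type ones. It fell by 4.54 ± 0.46 log2 units against untrained_WT (edgeR adjusted p = 6.19e-08) and fell by 3.30 ± 0.44 against trained_WT (edgeR adjusted p = 2.77e-06). In trained_WT its log2 fold change of -1.24 ± 0.39 was not called (edgeR adjusted p = 0.0896), while DESeq2 (adjusted p = 0.0297) and edgeR without untrained_WT replicate 4 (-1.41, adjusted p = 0.036) called it.

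The taurine carrier has 2 zebrafish genes that behaved differently. Taurine is among the most abundant free amino acids of muscle. The gene slc6a6a was at 1.05 to 5.36 CPM in untrained_TG (median 4.21), 0.921 to 3.65 CPM in trained_WT (median 1.63) and 3.27 to 14.04 CPM in untrained_WT (median 8.23). It fell by 2.01 ± 0.41 log2 units in trained_WT (edgeR adjusted p = 0.00731), where 6 of 7 libraries were below the lowest untrained_WT library. It also fell by 1.17 ± 0.40 in untrained_TG (edgeR adjusted p = 0.0205), where 3 of 7 were, a call lost without untrained_WT replicates 3 and 7 (-1.07, adjusted p = 0.0589). The gene slc6a6b, at 5.65 to 9.75 CPM in untrained_TG (median 7.21), 7.45 to 15.97 CPM in trained_WT (median 12.1) and 5.61 to 9.27 CPM in untrained_WT (median 7.12), rose in trained_WT by 0.63 ± 0.17 (edgeR adjusted p = 0.0408). That call was lost in 10 of 21 fits with a library left out, where the adjusted p reached 0.0947. In untrained_TG the log2 fold change of slc6a6b was 0.02 ± 0.17 (edgeR adjusted p = 0.95). The other tested GABA, betaine and taurine carriers, slc6a1b and slc6a11b among them, were not called against untrained_WT by edgeR with TMM.

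Some slc6 members are known in mammals from the brush border of kidney and gut, and these varied widely between libraries of a group. The neutral amino acid carrier genes slc6a19a.1 and slc6a19b were called lower in untrained_TG, with log2 fold changes of -1.94 ± 0.68 (edgeR adjusted p = 0.0255) and -2.14 ± 0.85 (edgeR adjusted p = 0.0465). For slc6a19a.1 trained_WT was about as low, with means of 0.909 CPM there, 1.11 CPM in untrained_TG and 4.26 CPM in untrained_WT. The main edgeR fit did not call that trained difference. DESeq2 called it (-2.22, adjusted p = 0.0111), as did edgeR with library totals (-2.73, adjusted p = 0.0414). The values of slc6a19b were 0.816 to 8.18 CPM in untrained_TG (median 5.25), 0.282 to 30.9 CPM in trained_WT (median 8.37) and 2.34 to 87.9 CPM in untrained_WT (median 8.59), so the groups overlapped widely. Neither gene's call in untrained_TG was stable. That of slc6a19b was lost in 10 of 21 fits with a library left out and with RLE scaling (adjusted p = 0.0507), and that of slc6a19a.1 was lost in 3 of 21. Without untrained_WT replicate 5, at 15.6 CPM for slc6a19a.1 and 87.9 CPM for slc6a19b, the log2 fold changes were -1.16 (adjusted p = 0.135) and -0.98 (adjusted p = 0.304). With all libraries kept, limma called neither (adjusted p = 0.568 and 0.589).

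The same library was the highest of its group for slc3a1 (49.4 CPM), slc7a9 (19.03 CPM), slc43a2b (18.5 CPM) and slc1a1 (4.39 CPM). It was also the highest of its group for summed red blood cell markers (2101 CPM, group median 444). The same held for fibroblast (750 CPM, median 485) and endothelial markers (183 CPM, median 106), and not for the other marker lists. The kidney marker slc12a3, a sodium chloride carrier of the distal tubule, was at 26.1 CPM there, and at 0.330 to 25.3 CPM in the other untrained_WT libraries. The 6 liver, kidney and gut markers together summed to 3.27 to 38.6 CPM in untrained_TG, 3.53 to 36.2 CPM in trained_WT and 4.17 to 49.3 CPM in untrained_WT. Replicate 5 of untrained_WT was not the highest for that sum: it was at 41.5 CPM, with replicate 6 at 49.3 CPM and replicate 7 at 42.4 CPM. The liver gene vtna did not exceed 0.246 CPM, and the other liver and gut genes of the list are given here only within that sum. None of the 5 tested was called by edgeR with TMM in untrained_TG against untrained_WT, where 1 had an unadjusted p under 0.05, or by DESeq2 or limma. With library totals 1 of the 5 was called lower there. What part RNA of such tissues has in these carriers' levels was not tested. The genes slc6a18, slc6a19a.1 and slc6a19a.2 are neighbours in the RefSeq gene table for GRCz12tu, and reads of such copies may be split uncertainly.

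**Figure D3:**
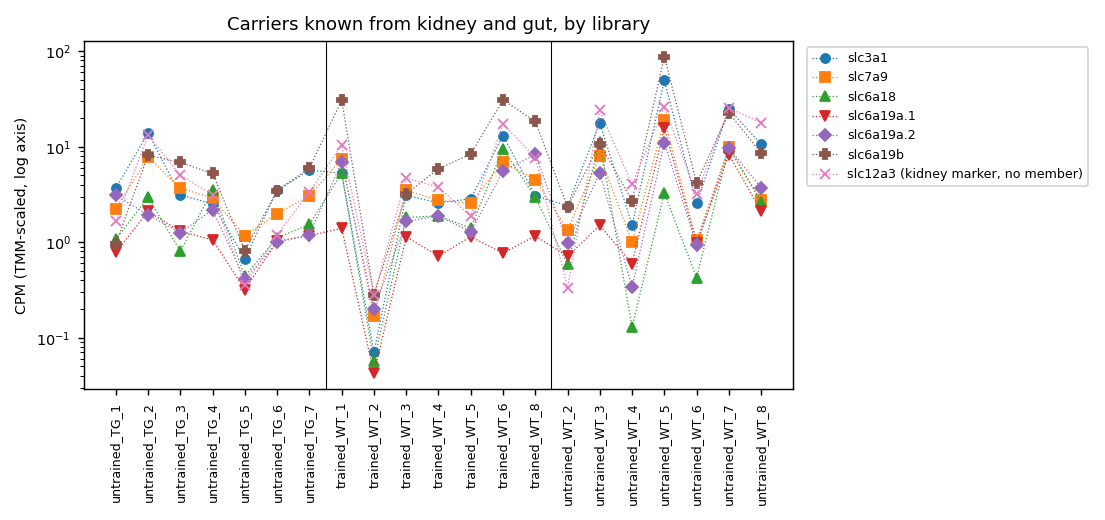
CPM on a log axis of carriers known from kidney and gut, and of the kidney marker slc12a3, in each library (columns, untrained_TG, trained_WT and untrained_WT from left to right; dotted lines only join the points of a gene). In untrained_WT replicate 5 slc6a19b was at 87.9 CPM, slc3a1 at 49.4 CPM and slc12a3 at 26.1 CPM.

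Of the remaining slc6 carriers, slc6a22.2 was called. The gene slc6a22.2 was at 1.86 to 6.47 CPM in untrained_TG (median 2.20), 0.620 to 1.95 CPM in trained_WT (median 0.785) and 0.526 to 2.14 CPM in untrained_WT (median 1.099), and rose by 1.36 ± 0.37 log2 units in untrained_TG (edgeR adjusted p = 0.00459), a call that library totals ended (0.79, adjusted p = 0.115). Its neighbour slc6a22.1 was not called there (0.13 ± 0.28, edgeR adjusted p = 0.742). Of the 12 tested slc6 carriers outside the taurine, GABA and monoamine groups, 1 rose and 3 fell in untrained_TG, 33.3% against 43.4% of all genes, and the falls include both slc6a19 calls described above. With library totals 0 were higher and 6 lower. In trained_WT edgeR called 0 of them, 3 had an unadjusted p under 0.05, DESeq2 called 2, both lower, and limma called none.

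The sodium-coupled slc38 carriers, which move glutamine and other neutral amino acids, included members that changed little. The system A carrier gene slc38a2, which mammalian cells induce when amino acids run short, was at 132 to 382 CPM in untrained_TG (median 248), 106 to 328 CPM in trained_WT (median 198) and 132 to 351 CPM in untrained_WT (median 223). The groups overlapped almost fully, with log2 fold changes of -0.02 ± 0.28 (edgeR adjusted p = 0.96) and -0.20 ± 0.28 (edgeR adjusted p = 0.745). The glutamine carrier gene slc38a3b, SNAT3 in mammals, did change. It lay at 22.2 to 50.2 CPM in untrained_TG (median 40.2), 80.3 to 144 CPM in trained_WT (median 102) and 85.3 to 166 CPM in untrained_WT (median 105). All transgenic libraries were below all wild-type ones, and it fell by 1.55 ± 0.20 log2 units against untrained_WT (edgeR adjusted p = 1.65e-06) and fell by 1.57 ± 0.20 against trained_WT (edgeR adjusted p = 1.52e-06). The sparse paralog slc38a3a averaged 0.522 ± 0.248, 0.323 ± 0.188 and 0.537 ± 0.523 CPM in untrained_TG, trained_WT and untrained_WT and was not called.

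Smaller changes were seen in other slc38 genes. The gene slc38a4, at 17.2 to 50.5 CPM in untrained_TG (median 28.6), 33.6 to 70.1 CPM in trained_WT (median 47.1) and 30.5 to 75.5 CPM in untrained_WT (median 62.5), fell by 0.78 ± 0.25 in untrained_TG (edgeR adjusted p = 0.0145). In contrast slc38a5b, at 33.2 to 105 CPM in untrained_TG (median 53.7), 38.0 to 49.6 CPM in trained_WT (median 42.6) and 21.2 to 51.8 CPM in untrained_WT (median 34.4), rose by 0.72 ± 0.21 (edgeR adjusted p = 0.0094). Limma (adjusted p = 0.0555) and library totals (0.28, adjusted p = 0.222) ended that call. The gene slc38a6 rose by 0.46 ± 0.18 (edgeR adjusted p = 0.0452), a call lost in 11 of 21 fits with a library left out and close to 0 with library totals (0.01, adjusted p = 0.976). The low-count slc38a8b, named after its values were seen, averaged 0.615 ± 0.213 CPM in untrained_TG, 0.183 ± 0.0932 CPM in trained_WT and 0.237 ± 0.143 CPM in untrained_WT and rose by 1.37 ± 0.43 (edgeR adjusted p = 0.0124). Library totals ended that call too: with them 0 of the 11 tested slc38 genes were higher and 5 lower in untrained_TG against untrained_WT. In trained_WT against untrained_WT edgeR called 0 of the 11 tested slc38 genes, 1 had an unadjusted p under 0.05, and DESeq2 and limma called none.

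Of the carriers known from the lysosome, slc36a1 fell in transgenic muscle. The protein of slc38a9 senses arginine for mTOR in human cells. The gene averaged 8.86 ± 3.86 CPM in untrained_TG, 7.02 ± 2.58 CPM in trained_WT and 5.03 ± 2.33 CPM in untrained_WT, and its log2 fold change of 0.82 ± 0.37 in untrained_TG was not called (edgeR adjusted p = 0.077) unless untrained_TG replicate 1 was left out (1.03, adjusted p = 0.0132). The proton-coupled carrier gene slc36a1, PAT1 in mammals, lay at 0.318 to 0.762 CPM in untrained_TG (median 0.461), 1.03 to 1.73 CPM in trained_WT (median 1.27) and 0.983 to 1.51 CPM in untrained_WT (median 1.19). No transgenic library reached a wild-type one, and it fell by 1.32 ± 0.22 log2 units against untrained_WT (edgeR adjusted p = 5.28e-05). Its relative slc36a4 averaged 0.653 ± 0.222, 1.34 ± 0.463 and 0.783 ± 0.241 CPM in untrained_TG, trained_WT and untrained_WT. It was not called against untrained_WT, but the log2 fold change of untrained_TG against trained_WT was -1.04 ± 0.29 (edgeR adjusted p = 0.00536).

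**Figure D4:**
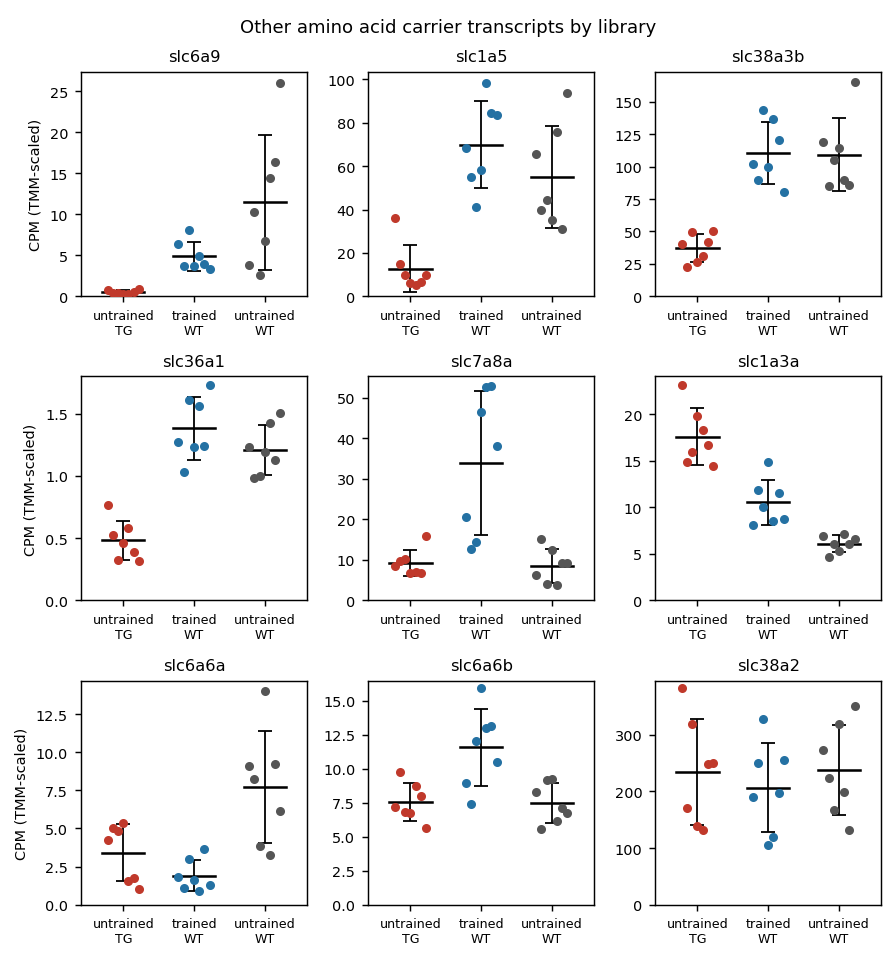
CPM of further carriers in each library (points) with the group mean and SD (n = 7 per group, linear axes from 0), for untrained_TG, trained_WT and untrained_WT from left to right. The untrained_TG points lie below all wild-type points for slc6a9, slc38a3b and slc36a1.

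The monoamine carriers slc6a2, slc6a3 and slc6a4 match the naming rule but carry no amino acid. Neither of the 2 tested was called in either comparison with untrained_WT by edgeR with TMM, DESeq2 or limma. In trained_WT 1 had an unadjusted p under 0.05, and with library totals 1 was called lower in untrained_TG. The gene slc7a6os, which is no carrier, was even across groups with TMM at 18.3 ± 2.82 CPM in untrained_TG, 18.4 ± 2.58 CPM in trained_WT and 19.2 ± 1.18 CPM in untrained_WT. With library totals it was called lower in untrained_TG against untrained_WT (-0.56). Close copies such as the slc3a2 and slc7a1 genes may share reads, which leaves their counts less certain. In the RefSeq gene table for GRCz12tu, the spans of slc36a1 and atox1, slc7a2 and mtmr7a, and slc6a9 and ccdc24 overlap. So do those of slc6a19b and fhod3b, and of slc38a8b and exosc6. The spans of slc43a1b, slc38a3b and slc38a4 overlap uncharacterised loci. Whether counting used strand is not stated in the labels or headers, and overlapping genes may then not be told apart.

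Genes of the response to amino acid shortage were listed beside the carriers. Of 34 tested, 1 rose and 14 fell in untrained_TG against untrained_WT, 44.1%, which is near the 43.4% of all genes (18.3% higher and 25.1% lower). Their median log2 fold change was -0.50, against -0.13 over all genes, and with library totals 0 were higher and 22 lower. The gene of the transcription factor ATF4, atf4a, averaged 211 ± 35.9 CPM in untrained_TG, 546 ± 199 CPM in trained_WT and 541 ± 303 CPM in untrained_WT, and fell by 1.36 ± 0.33 in untrained_TG (edgeR adjusted p = 0.00197), while its paralog atf4b did not change beyond its spread (-0.01 ± 0.18, edgeR adjusted p = 0.964). Other genes of the list that fell included trib3, a pseudokinase (-1.33 ± 0.29, edgeR adjusted p = 0.000801), shmt2 of mitochondrial serine breakdown (-1.95 ± 0.22, edgeR adjusted p = 2.88e-07) and the tRNA-charging enzyme genes sars (-2.08 ± 0.36, edgeR adjusted p = 7.66e-05) and aars (-1.89 ± 0.42, edgeR adjusted p = 0.000901). The asparagine synthetase gene asns was at 8.29 ± 6.78 CPM in untrained_TG and 17.9 ± 13.97 CPM in untrained_WT and was not called (-1.11 ± 0.55, edgeR adjusted p = 0.106). The gene that rose was EIF2AK4, the gene of GCN2 itself (0.37 ± 0.11, edgeR adjusted p = 0.00977).

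In trained muscle the same list gave 2 calls, both higher, 5.88% against 2.95% of all genes, and 1 without untrained_WT replicates 3 and 7. They were ddit3, the gene of the stress factor CHOP, at 52.4 ± 8.43 CPM in trained_WT and 22.8 ± 4.16 CPM in untrained_WT (1.20 ± 0.16, edgeR adjusted p = 0.000143), and cebpb, at 191 ± 61.6 CPM in trained_WT and 68.0 ± 51.9 CPM in untrained_WT (1.49 ± 0.33, edgeR adjusted p = 0.0159). In untrained_TG both fell against untrained_WT, ddit3 with a log2 fold change of -0.73 ± 0.16 (edgeR adjusted p = 0.000908) and cebpb with -0.99 ± 0.33 (edgeR adjusted p = 0.0185). Untrained_TG was lower than trained_WT for 18 of the 34 genes and higher for 1, against 22.5% lower and 19.2% higher over all genes.

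**Figure D5:**
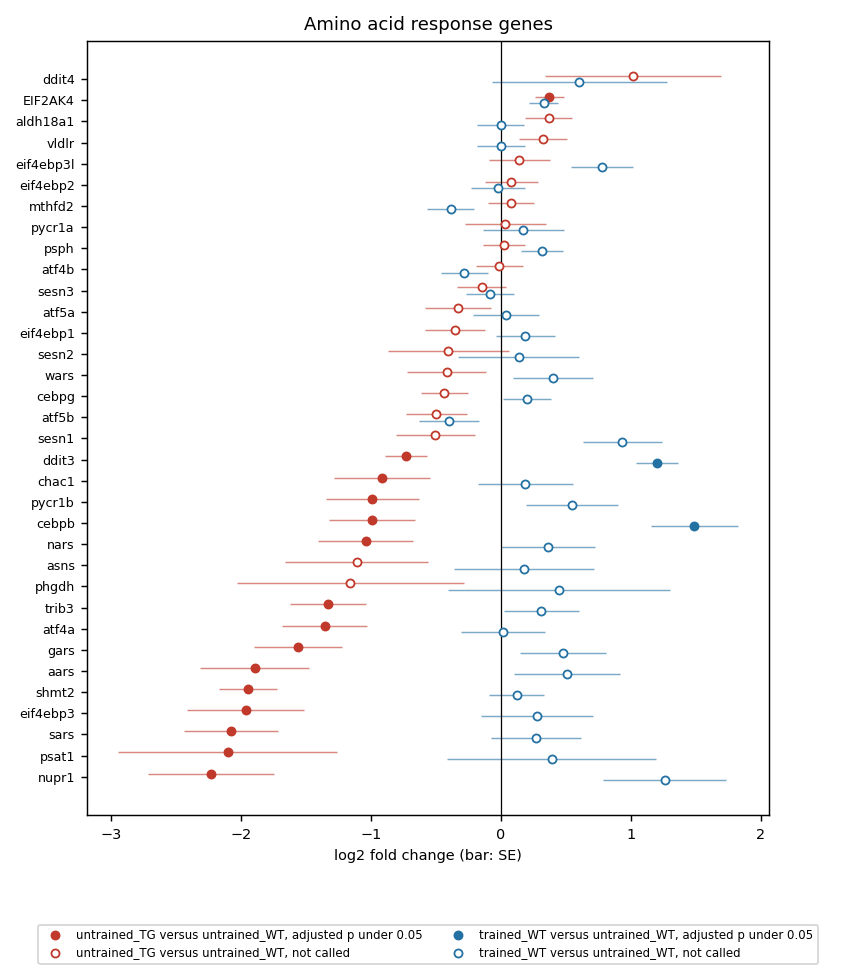
Log2 fold changes with standard error of genes of the amino acid shortage response (rows), in untrained_TG against untrained_WT and in trained_WT against untrained_WT (colours). Filled points are called at an adjusted p under 0.05; atf4a lies at -1.36 in untrained_TG, and ddit3 at -0.73 in untrained_TG and 1.20 in trained_WT.

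Of 15 tested genes of amino acid sensing by mTOR, 1 rose and 7 fell in untrained_TG against untrained_WT, 53.3% against 43.4% of all genes. With library totals 1 was higher and 12 lower. The kinase gene mtor was at 9.99 ± 1.64 CPM in untrained_TG, 19.8 ± 2.12 CPM in trained_WT and 19.9 ± 3.51 CPM in untrained_WT, and fell by 0.995 ± 0.13 in untrained_TG (edgeR adjusted p = 2.51e-06). The gene of the lysosomal anchor lamtor1 fell by 1.69 ± 0.19 (edgeR adjusted p = 2.05e-07), and that of the small GTPase rragca rose by 1.12 ± 0.20 (edgeR adjusted p = 9.6e-05). In trained_WT edgeR called 0 of the 15, 1 had an unadjusted p under 0.05, and DESeq2 and limma called none. Of 39 tested genes of amino acid metabolism, 9 rose and 12 fell in untrained_TG, 53.8% against 43.4% of all genes, and with library totals 6 were higher and 20 lower. Those that rose included bcat2, the mitochondrial branched-chain aminotransferase, at 221 ± 53.3 CPM in untrained_TG and 38.1 ± 11.7 CPM in untrained_WT (2.54 ± 0.20, edgeR adjusted p = 2.29e-09) and bckdha (1.92 ± 0.22, edgeR adjusted p = 2.7e-07).

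Other genes of that list fell. The argininosuccinate synthase gene ASS1 fell by 3.13 ± 0.28 (edgeR adjusted p = 9.29e-09), gamt, of creatine synthesis, fell by 2.82 ± 0.37 (edgeR adjusted p = 2.35e-06) and the glutaminase gene gls2a fell by 1.96 ± 0.21 (edgeR adjusted p = 1.23e-07). The taurine synthesis gene csad, at 0.142 to 0.875 CPM in untrained_TG and 0.194 to 9.01 CPM in untrained_WT, fell by 2.98 ± 0.86 (edgeR adjusted p = 0.00775). In trained_WT edgeR called 0 of the 39, 7 had an unadjusted p under 0.05, DESeq2 and limma each called 1, higher. A list of amino acid and peptide carriers outside the naming rule, which also held slc6a8, had 6 tested genes. In untrained_TG 1 rose, 2 fell and 3 were not called, 50% called against 43.4% of all genes. With library totals 1 was higher and 4 lower. The aromatic amino acid carrier gene slc16a10 fell by 1.39 ± 0.20 in untrained_TG (edgeR adjusted p = 9.85e-06). The gene slc15a4, of a lysosomal histidine and peptide carrier, fell by 1.25 ± 0.24 (edgeR adjusted p = 0.000193). The peptide carrier gene slc15a1b rose by 1.44 ± 0.24 (edgeR adjusted p = 3.37e-05).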

How the data were processed

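The deposited table of raw read counts per gene was analysed for 21 libraries, 7 in each of 3 groups; the labels list 24 samples, and untrained_WT replicate 1, trained_WT replicate 7 and untrained_TG replicate 8 were not analysed here. The labels describe stranded poly(A) paired-end libraries. Per the submitters' processing notes, tools were STAR 2.4.0i, HTSeq 0.9.1 and DESeq2, with GRCz10; no annotation release or strand setting is stated there. The authors' deposited tables also hold log2 fold changes and adjusted p-values from their own comparisons, used where named; 42 columns of per-sample normalised values were not used.

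One model over all 21 libraries was fitted in edgeR 4.0.16 (R 4.3.3), using TMM factors, the filterByExpr filter with group given, and the quasi-likelihood F test, with Benjamini-Hochberg adjustment per comparison over 18947 genes. A standard error is the log2 fold change divided by the square root of F. Libraries held 42808402 to 79184764 counts over genes, and the biological coefficient of variation was 49.5%, which limits the small changes that can be called. Alternatives were DESeq2 1.42.0, limma 3.58.1 with voom quality weights, RLE scaling, library totals, no filter, only the libraries compared, a replicate block, each library left out, and untrained_WT replicates 3 and 7 left out together. The fit was also run on simulated counts in which all groups shared a composition apart from a limited set of changed genes. Shifts as broad as those in untrained_TG were not simulated.

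The members, lists and tests were chosen with earlier results of these data known. Named carriers were, per comparison, the 10 called with the highest and the 10 with the lowest log2 fold change among those with a mean of at least 50 counts, the 10 highest in untrained_WT by CPM, and a preset set of well-known carriers; others are the rest of a family described. All 81 IDs matched the names table. Gene lengths and sequences were not used here, so levels are not per length.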

Additional observations from a re-analysis of the deposited data

Results flagged for a closer look

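Of 96 groups of 7 libraries examined for the named carriers, 11 had a library standing apart from the other 6 by Dixon's criterion of 0.568. Chance alone gives about 1 in 20 where values are normally distributed. The CPM were not log-transformed and all 11 were at the highest end, so their number is not read as an excess over chance. In untrained_TG, replicate 1 stood apart in slc7a1 at 4.74 CPM (others 1.29 to 2.57 CPM), in slc1a5 at 36.0 CPM (others 5.13 to 14.8 CPM) and in slc43a2a at 798 CPM (others 172 to 356 CPM). Replicate 7 of that group stood apart in slc7a8a at 15.9 CPM (others 6.82 to 10.3 CPM), and replicate 2 in the sparse slc7a5 at 0.136 CPM (others up to 0.0545 CPM). In trained_WT, replicate 5 stood apart in slc36a4 at 2.32 CPM (others 0.909 to 1.45 CPM).

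In untrained_WT, replicate 5 stood apart in slc6a19b at 87.9 CPM (others 2.34 to 22.7 CPM), in slc43a2b at 18.5 CPM (others 0.659 to 7.66 CPM) and in slc3a2a at 27.2 CPM (others 8.48 to 15.5 CPM). Replicate 8 of that group stood apart in slc38a3b at 166 CPM (others 85.3 to 119 CPM), and replicate 7 in the sparse slc7a8b at 0.393 CPM (others up to 0.117 CPM).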

How the results depend on the processing

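Across the comparisons, of 78 carriers DESeq2 called 12 higher and 16 lower in untrained_TG against untrained_WT. It called 7 and 4 in trained_WT against untrained_WT, and 8 and 17 in untrained_TG against trained_WT. Over its 27273 genes the counts were 3903 and 5253, 705 and 562, and 4215 and 4372. Of 57 carriers limma gave 10 and 13, 6 and 2, and 8 and 18. Over its 18947 genes the counts were 3932 and 4637, 631 and 347, and 4084 and 4615. Over all genes the trained_WT against untrained_WT count moved most: edgeR called 426 higher and 133 lower. There DESeq2 called 705 higher and 562 lower, limma called 347 lower, library totals gave 201 higher and 927 lower, no filter 67 lower, only the libraries compared 86 lower, and leaving out untrained_WT replicates 3 and 7 together 210 higher and 52 lower. Among the carriers in that comparison, DESeq2 called 4 lower, and library totals 3 higher and 4 lower. In untrained_TG against untrained_WT library totals gave 1538 genes higher and 8139 lower, with 7 carriers higher and 26 lower, and in untrained_TG against trained_WT 2178 genes higher.

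Same-numbered libraries of different groups correlated between -0.312 and 0.399 in their deviations from the group means. Differently numbered libraries were not set beside them, so whether the number marks a shared tank, day or batch was not tested, and the labels do not say. With the replicate number as a block, edgeR called 10 carriers higher and 12 lower in untrained_TG against untrained_WT (3225 and 4045 genes), 4 and 2 in trained_WT against untrained_WT (306 and 63 genes) and 7 and 13 in untrained_TG against trained_WT (3218 and 3899 genes).

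With each library left out in turn, carriers called in untrained_TG against untrained_WT were 10 to 12 higher and 9 to 16 lower, in trained_WT against untrained_WT 4 to 6 higher and 1 to 3 lower, and in untrained_TG against trained_WT 7 to 8 higher and 13 to 17 lower. The count of 1 lower came without trained_WT replicate 5 or without untrained_WT replicate 2. Over all genes the ranges were 3077 to 3611 higher and 4320 to 5025 lower, 237 to 487 higher and 50 to 157 lower, and 3359 to 3745 higher and 3967 to 4512 lower. The low of 237 came without trained_WT replicate 5, and 271 without untrained_WT replicate 3.

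Signs that turned belonged to log2 fold changes that were not called, and the cause was not tested. In untrained_TG against untrained_WT, library totals gave -0.435 for slc7a8a and -0.476 for slc6a6b, which no filter put at -0.0321 and the loss of untrained_WT replicates 3 and 7 at -0.0527. That loss gave 1.098 for slc38a3a, limma gave 0.798 for it, and slc38a2 was 0.0131 in DESeq2 and 0.0134 with RLE scaling. In trained_WT against untrained_WT, limma gave 0.822 for slc6a19b, 0.0763 for slc6a22.2, -0.0529 for slc38a3b and -0.0149 for slc38a6, and the block gave 0.0358 for slc6a19b. Library totals there gave -0.0887 for slc36a1, -0.235 for slc38a3b, -0.211 for slc38a6, -0.0367 for slc43a2a and -0.00584 for slc43a2b. Without untrained_WT replicates 3 and 7 the values were 0.0115 for slc6a22.2, 0.399 for slc38a3a, -0.102 for slc38a3b, -0.0281 for slc38a6 and -0.0327 for slc43a2a, and with only the libraries compared -0.00195 for slc38a3b. Leaving out single libraries turned signs within -0.146 to 0.106 for slc38a2, -0.236 to 0.376 for slc38a3a, -0.0709 to 0.0749 for slc6a6b and -0.0713 to 0.271 for slc7a8a in untrained_TG against untrained_WT. In trained_WT against untrained_WT the ranges were -0.0589 to 0.145 for slc38a3b, -0.193 to 0.0110 for slc38a4, -0.0310 to 0.128 for slc38a6, -0.834 to 0.691 for slc6a19b and -0.405 to 0.000583 for slc6a22.2. The 24 carriers under the filter on low counts were not tested in the edgeR fit with that filter, so it could call no change in them. DESeq2 and edgeR without the filter covered 78 carriers. Without the filter edgeR called 10 higher and 15 lower in untrained_TG against untrained_WT. Over all 27273 genes it then called 3198 higher and 5550 lower. In the authors' deposited DESeq2 values, 2 carriers under the filter were lower there: slc6a17 (-3.42, adjusted p = 9.06e-06) and slc7a10b (-2.27, adjusted p = 0.0115).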
